A study of Mus musculus with 6 samples.

Results

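The locus is a stretch of 18097 bp of mouse chromosome 2, listed at positions 30775172 to 30793268, from which 3 features of a long non-coding RNA (lncRNA) table are described here. They are 3 of 24817 features in that table: NONMMUT108924.1 and NONMMUT108925.1, which carry identifiers of the NONCODE catalogue, and MSTRG.30697.1, a transcript that the authors assembled from their reads. They were selected on the difference of their counts and FPKM values between the study's 2 groups and on their shared position, so the differences given for them are a description and carry no test. Of the other features of the table, 2 are listed in the same interval, 4 are tied by the table's gene column to the gene Ptges, and 9 lie within 100000 bp on either side.

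RNA was sequenced from 6 libraries of RAW264.7 cells, a mouse macrophage line whose source is labelled abdominal cavity, with 3 libraries in each group. In both groups the cells were stimulated with lipopolysaccharide (LPS), a bacterial cell wall component, for 24 h and then moved to medium that had extracted bone cement, a polymethyl methacrylate (PMMA). The LPS_ES_PMMA group received extract of cement loaded with the heparin enoxaparin sodium (ES), an anticoagulant drug, and the LPS_PMMA group received extract of plain cement. For the LPS_PMMA libraries PMMA stands in the titles and treatment labels but not in the descriptions or the table's column names, which give LPS alone. No group without LPS was analysed, and the labels do not say whether libraries of a group are separate cultures, so p-values measure a spread that may be technical.

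Prostaglandin E2 is a lipid mediator of inflammation, fever, pain and bone resorption. Cyclooxygenases turn arachidonic acid into prostaglandin H2, and microsomal prostaglandin E synthase-1, the product of Ptges, turns that into prostaglandin E2. In macrophages Ptges is known as a gene that LPS induces together with the inducible cyclooxygenase Ptgs2. The comparison of the groups addresses how the enoxaparin-containing cement changes the RNA of inflamed macrophages.

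The listed interval and the Ptges gene were set side by side first. Per the submitters' processing notes the build is mm10, and 2517 of 2533 Ensembl transcripts of the table have exactly the start and end that the GENCODE M21 annotation of that build (GRCm38) gives. On that build the interval holds no gene: it lies between Mir3089, 53879 bp below it, and 1700001O22Rik, 1501 bp above it. Ptges lies on the minus strand, with its main transcript ENSMUST00000102852 at 30889471 to 30903297, and its start site is 110029 bp above the listed end of MSTRG.30697.1. Gene models of GRCm39 were not used here, and the offsets below were read from the table and GENCODE M21 alone.

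After such an offset MSTRG.30697.1 lay on Ptges. Around the locus, between 25000000 and 36000000 on chromosome 2, 34 assembled transcripts are listed, and 3 of them met both ends of a protein-coding gene's transcript (Odf2, Ntmt1 and Mvb12b) at one and the same offset of 109988 bp. After that offset, 20 of the 34 have the spliced length of the exons of a protein-coding transcript inside their span, whereas at the listed positions none has. MSTRG.30697.1 is one of the 20. Its listed end then falls 41 bp inside the Ptges start site, and its listed length of 1153 nt equals the Ptges exon bases inside its span: 167 of the 208 nt of exon 1, all 83 nt of exon 2 and 903 of the 3356 nt of exon 3. The whole coding sequence, bases 80 to 538 of the 3647-nt transcript, lies inside that span. The table labels MSTRG.30697.1 an antisense lncRNA, leaves its gene column blank and gives no strand for it.

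Its ends and spliced length are what tie MSTRG.30697.1 to Ptges. Its own exons are not listed, so its junctions were not seen. Below, a transcript said to have the exons or exon structure of a gene was matched by its ends and total intron length alone. Both exon junctions of ENSMUST00000102852 are printed here from GENCODE M21 (GRCm38, chromosome 2, minus strand). They run in the direction of transcription, with the bases of the downstream exon in capitals. Both junctions lie inside the coding sequence.
Exon 1 to exon 2: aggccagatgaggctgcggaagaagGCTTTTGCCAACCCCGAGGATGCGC
Exon 2 to exon 3: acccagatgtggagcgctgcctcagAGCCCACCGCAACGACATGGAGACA

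Since MSTRG.30697.1 ends next to the Ptges start site after the offset, the Ptges promoter is shown as well. It comes from RefSeq (GRCm38.p6, chr2:30903248-30903547, minus strand) and runs from 250 bases before to 50 bases after the start site, with capitals on 2 GC boxes, the letters GGGCGG, at 53 and 42 bases before it.
Ptges promoter: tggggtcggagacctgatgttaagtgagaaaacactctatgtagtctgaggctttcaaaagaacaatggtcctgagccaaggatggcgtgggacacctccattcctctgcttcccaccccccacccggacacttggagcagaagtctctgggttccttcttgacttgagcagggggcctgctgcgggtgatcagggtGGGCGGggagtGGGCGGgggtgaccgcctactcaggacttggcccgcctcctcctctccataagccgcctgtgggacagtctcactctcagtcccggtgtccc
GC boxes are bound by Sp1 and Sp3, and the boxes of the Ptges promoter are known as sites where Egr1 acts. The same letters, searched on both strands, occur at least once in 35.7% of 32851 promoters of the same length and at least 2 times in 19.5%, so a match describes the sequence and is not a measured site.

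**Figure D1:**
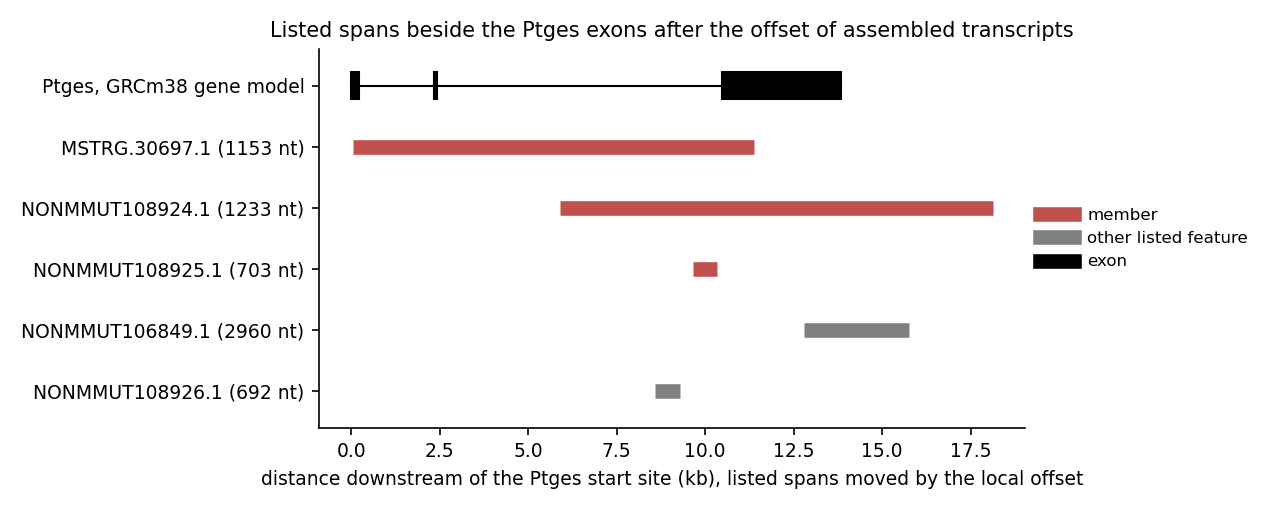
The listed spans of the 5 features of the interval, moved by the offset read from assembled transcripts, are drawn against the distance in kb downstream of the Ptges start site, with the Ptges exons in black. MSTRG.30697.1 reaches from exon 1 into exon 3 and ends 41 bp from the start site, NONMMUT108924.1 extends past the far end of the gene, and NONMMUT108925.1 and NONMMUT108926.1 lie between exons 2 and 3. That the 4 NONCODE features share the offset is assumed for the drawing, and 0 of 212 NONCODE features around the locus met an annotated transcript at it.

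For the catalogue features the same placement is less certain. NONMMUT108924.1 (30775172 to 30787397, labelled intergenic) spans 12226 bp and is 1233 nt long, so it is spliced, but its exons are not in the table. As listed, its span contains the whole of NONMMUT108925.1 (30782964 to 30783666, labelled intergenic) and overlaps MSTRG.30697.1 over 5462 bp. NONMMUT108925.1 is a single block of 703 nt and lies wholly inside the span of MSTRG.30697.1. Of 212 NONCODE features in the stretch around the locus, 5 met both ends of an annotated transcript within 200 bp at no offset and 0 did at the offset of the assembled transcripts. For the others neither place was met, and whether the reads of the 2 NONCODE members were counted at their listed place or over Ptges was not tested. For other NONCODE and Ensembl features, the place where reads were counted was not tested either. Ties below by gene column or overlap rest on the listed place. After the offset, NONMMUT108924.1 would cover all 3356 nt of exon 3 with its span, and NONMMUT108925.1 would touch no Ptges exon. The sources used here do not give the strand setting of the counting, so reads of Ptges and of an antisense transcript at the same place cannot be told apart, and overlapping features may share reads.

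Across the series, column totals ran from 1123551 counts in LPS_ES_PMMA 2 to 3697638 in LPS_PMMA 1. The 5 features with the highest mean FPKM over the 6 libraries held 46.6% to 78.2% of a library's counts. TMM factors, which scale library totals, came to 1.29, 1.82 and 0.983 in LPS_ES_PMMA 1 to 3, against 0.559, 0.792 and 0.977 in LPS_PMMA 1 to 3, so they differ between the groups. CPM below are counts per 1000000 of the TMM-scaled total. Of 8873 features tested with edgeR's quasi-likelihood test, 422 passed an adjusted p of 0.05 (4.76%), of which 229 were lower (2.58%) and 193 higher (2.18%) in LPS_ES_PMMA; with column totals in place of TMM, 68 were lower and 302 higher. Of 12 macrophage marker genes, only Adgre1 was tied to features by the gene column, with 2, of which 1 was tested and did not pass (log2 fold change -0.55 ± 0.25 SE, adjusted p = 0.238 by edgeR). MSTRG.25730.1, with the exons of Adgre1, held 22, 0 and 21 counts in LPS_ES_PMMA 1, 2 and 3, and 44, 37 and 39 counts in LPS_PMMA 1, 2 and 3, with groups that did not overlap in CPM and a log2 fold change of -1.91 ± 0.73 (SE) that did not pass (adjusted p = 0.177 by edgeR). Its part in the members' values was not tested. Markers of other cell types had 5 features in all, of which an antisense feature at Krt8 alone was tested and did not pass (log2 fold change 0.85 ± 0.23 SE, adjusted p = 0.088 by edgeR).

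All 3 members were lower in LPS_ES_PMMA than in LPS_PMMA, and in none did the groups overlap. MSTRG.30697.1, the transcript matched to Ptges by its ends and spliced length, differed most. It stood at 3.42 ± 1.42 CPM in LPS_ES_PMMA and 27.7 ± 11.5 CPM in LPS_PMMA (SD, n = 3 each). In a bulk sample, fewer cells with an RNA and less of it per cell cannot be told apart. Of all tested features, 14.6% were lower in LPS_ES_PMMA with groups that did not overlap, and the members were chosen for that pattern.

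MSTRG.30697.1 held 11, 5 and 15 counts in LPS_ES_PMMA 1, 2 and 3, and 78, 74 and 43 counts in LPS_PMMA 1, 2 and 3. The highest LPS_ES_PMMA library stayed below the lowest LPS_PMMA library, LPS_PMMA 3, which lay well under the other two of its group. Its FPKM, the authors' values per kilobase of length and per 1000000 reads, came to 2.12, 1.75 and 3.02 in LPS_ES_PMMA, against 15.1, 15.5 and 9.63 in LPS_PMMA. The mean CPM in LPS_PMMA was 8.09 times that in LPS_ES_PMMA, and the fitted log2 fold change was -2.99 ± 0.46 (SE). Among the 8873 tested features, 89 had a lower one. A level read from 5 to 15 counts is imprecise, and LPS_ES_PMMA 2, with the fewest counts, is also the shallowest library.

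NONMMUT108924.1 was the most abundant of the members. It held 70, 18 and 47 counts in LPS_ES_PMMA 1, 2 and 3, and 91, 108 and 93 counts in LPS_PMMA 1, 2 and 3. Every LPS_PMMA library was above every LPS_ES_PMMA library, before and after scaling. Its mean level was 13.98 ± 4.25 CPM in LPS_ES_PMMA and 40.3 ± 5.90 CPM in LPS_PMMA (SD, n = 3 each), and the log2 fold change was -1.51 ± 0.31 (SE). In FPKM it stood at 12.6, 5.89 and 8.85 in LPS_ES_PMMA, against 16.5, 21.1 and 19.5 in LPS_PMMA.

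NONMMUT108925.1, the short single block, held 23, 12 and 16 counts in LPS_ES_PMMA 1, 2 and 3, and 35, 45 and 49 counts in LPS_PMMA 1, 2 and 3. After scaling the libraries of each group lay close together, at 5.68 ± 0.355 CPM in LPS_ES_PMMA and 17.5 ± 0.285 CPM in LPS_PMMA (SD, n = 3 each). Such small spreads are below what the counts themselves would give, since 12 to 49 counts carry a larger counting error. The log2 fold change was -1.62 ± 0.26 (SE). Its FPKM values, at 7.27, 6.89 and 5.28 in LPS_ES_PMMA against 11.1, 15.4 and 18.0 in LPS_PMMA, did not overlap either.

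**Figure D2:**
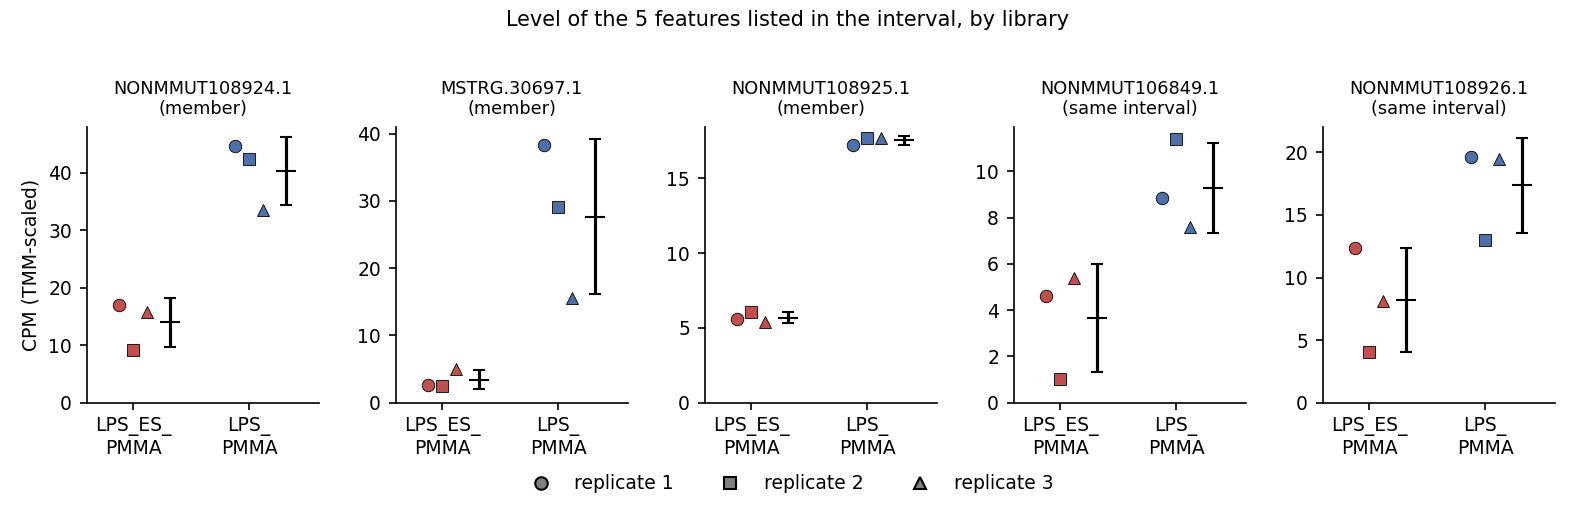
The level of each of the 5 features listed in the interval is plotted in CPM over TMM-scaled totals for each library (points, with shapes for the replicates) and as mean ± SD beside them, LPS_ES_PMMA left and LPS_PMMA right. In all 5 panels the LPS_ES_PMMA libraries lie below the LPS_PMMA libraries, with means of 3.42 and 27.7 CPM for MSTRG.30697.1. The members were chosen for that pattern, which 14.6% of all tested features show. For NONMMUT106849.1 and NONMMUT108926.1 the groups overlap in counts and separate after TMM scaling.

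Per length, the order of the members by mean FPKM was the same in both groups, but their overlap differed. In LPS_ES_PMMA the mean FPKM was 9.12 ± 3.37 for NONMMUT108924.1, 6.48 ± 1.06 for NONMMUT108925.1 and 2.30 ± 0.653 for MSTRG.30697.1 (SD, n = 3). MSTRG.30697.1 was below both other members in all 3 of those libraries, whereas the levels of the NONCODE members overlapped. In LPS_PMMA the mean FPKM was 19.0 ± 2.35 for NONMMUT108924.1, 14.8 ± 3.47 for NONMMUT108925.1 and 13.4 ± 3.27 for MSTRG.30697.1 (SD, n = 3), and neighbours in this order overlapped. By mean FPKM over the 6 libraries the members were above 93.7%, 92.0% and 88.7% of all listed features for NONMMUT108924.1, NONMMUT108925.1 and MSTRG.30697.1. These ranks average both groups. For MSTRG.30697.1 the rank rests mostly on LPS_PMMA, at 13.4 against 2.30 in LPS_ES_PMMA, and its rank within LPS_ES_PMMA was not read.

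Summed over the members, the locus held 104, 35 and 78 counts in LPS_ES_PMMA 1, 2 and 3, and 204, 227 and 185 counts in LPS_PMMA 1, 2 and 3. That is 23.1 ± 4.67 CPM in LPS_ES_PMMA and 85.5 ± 17.1 CPM in LPS_PMMA (SD, n = 3 each), a level 3.70 times as high in LPS_PMMA. With the sum fitted in place of its parts, the log2 fold change was -1.88 ± 0.29 (SE), a value that does not depend on how reads were divided among the 3 members. It still depends on how reads were divided with NONMMUT106849.1 and NONMMUT108926.1, whose spans lie inside that of NONMMUT108924.1. As a share of the counts of all 5 features of the interval, the members' counts made up 59.8%, 77.8% and 66.1% for LPS_ES_PMMA 1, 2 and 3, and 77.9%, 78.5% and 71.2% for LPS_PMMA 1, 2 and 3. The 5 features together came to 42.3, 22.8 and 39.8 CPM in LPS_ES_PMMA 1, 2 and 3, and 128.8, 113.7 and 93.9 CPM in LPS_PMMA 1, 2 and 3. The groups did not overlap in that sum, but most of its counts are those of the members, which were chosen for this difference. Its separation is therefore no separate evidence.

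The division itself also differed. Of the summed counts, MSTRG.30697.1 held 10.6%, 14.3% and 19.2% in LPS_ES_PMMA 1, 2 and 3, against 38.2%, 32.6% and 23.2% in LPS_PMMA 1, 2 and 3. The mean share was 14.7% ± 4.34 in LPS_ES_PMMA and 31.4% ± 7.57 in LPS_PMMA (SD, n = 3 each). The groups did not overlap, but the exact binomial 95% interval of the highest LPS_ES_PMMA library, 11.2% to 29.7%, overlapped that of the lowest LPS_PMMA library, 17.4% to 30.004%. Such intervals cover counting error only. NONMMUT108924.1 held 59.7% ± 7.96 of the sum in LPS_ES_PMMA and 47.5% ± 2.83 in LPS_PMMA.

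**Figure D3:**
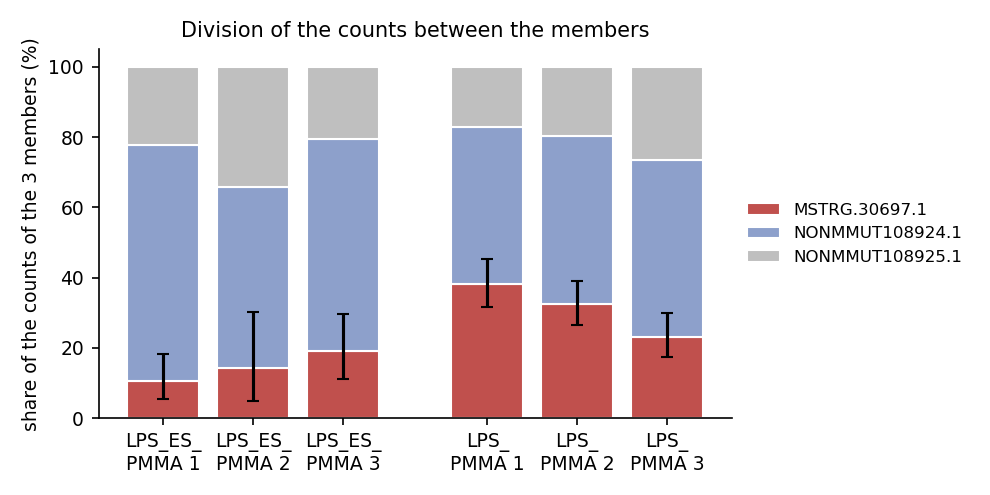
Bars show the share of the members' summed counts that each member held, in percent, for each of the 6 libraries, with the LPS_ES_PMMA libraries left and the LPS_PMMA libraries right; error bars are exact binomial 95% intervals of MSTRG.30697.1. MSTRG.30697.1 took 10.6% to 19.2% in LPS_ES_PMMA and 23.2% to 38.2% in LPS_PMMA.

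Across the 6 libraries the log2 CPM of the members moved together, with Pearson's r of 0.951 between MSTRG.30697.1 and NONMMUT108924.1, 0.934 between MSTRG.30697.1 and NONMMUT108925.1, and 0.909 between the NONCODE members. The 6 points form the 2 groups on which the members were chosen, and overlapping features may share reads, so these values are a description. By the same measure, the features outside the interval most like the summed members were NONMMUT145887.1 (chromosome 19, antisense at Plgrkt) and NONMMUT083131.1 (chromosome 11), both at r = 0.998. They were followed by MSTRG.1624.5 (chromosome 1) and NONMMUT004867.2 (chromosome 10), both at 0.996, and NONMMUT084903.1 (chromosome 11) at 0.995. Of 8868 features compared, 232 reached 0.95 (2.62%).

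The other features of the interval had the same direction without passing the test, and their values depended on the scaling. Both had an unadjusted p under 0.05 by edgeR, at 0.040 for NONMMUT106849.1 and 0.036 for NONMMUT108926.1. So did 1940 of the 8873 tested features. NONMMUT106849.1 (30777549 to 30780508), a single block of 2960 nt, held 19, 2 and 16 counts in LPS_ES_PMMA 1, 2 and 3, and 18, 29 and 21 counts in LPS_PMMA 1, 2 and 3. Its log2 fold change was -1.26 ± 0.51 (SE, adjusted p = 0.204 by edgeR). After the offset it would cover 1026 bases of Ptges exon 3. NONMMUT108926.1 (30784029 to 30784720) held 51, 8 and 24 counts in LPS_ES_PMMA 1, 2 and 3, and 40, 33 and 54 counts in LPS_PMMA 1, 2 and 3. Its log2 fold change was -1.04 ± 0.41 (SE, adjusted p = 0.191 by edgeR). In counts the groups overlapped for both features, and they separated after TMM scaling. With column totals in place of TMM the log2 fold change was -0.61 for NONMMUT106849.1 and -0.33 for NONMMUT108926.1.

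Features that the table itself ties to Ptges did not pass. NONMMUT108928.1 is labelled exonic and in the sense of the gene at its GRCm38 position. It is listed at 30919530 to 30930689, upstream of the main transcript ENSMUST00000102852. The only Ptges exon inside that span, at 30929762 to 30929863, belongs to another transcript, ENSMUST00000132244. NONMMUT108928.1 held 38, 18 and 27 counts in LPS_ES_PMMA 1, 2 and 3, and 10, 30 and 28 counts in LPS_PMMA 1, 2 and 3. The groups overlapped, at 0.02 ± 0.37 (log2 fold change and SE; adjusted p = 0.985 by edgeR), and at 0.75 with column totals in place of TMM (adjusted p = 0.374 by edgeR). NONMMUT036607.2, NONMMUT146255.1 and NONMMUT106853.1 held at most 13 counts in a library and were too low to test. The difference between NONMMUT108928.1 and MSTRG.30697.1 was not tested.

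Near the locus, none of the 3 tested features of the flanks passed by edgeR, DESeq2 or limma, and 0 had an unadjusted p under 0.05 by edgeR. NONMMUT108922.1 held 108, 38 and 92 counts in LPS_ES_PMMA 1, 2 and 3, and 168, 221 and 46 counts in LPS_PMMA 1, 2 and 3, at -1.28 ± 0.57 (log2 fold change and SE; adjusted p = 0.240 by edgeR). After scaling, LPS_PMMA 3 lay below all LPS_ES_PMMA libraries there. MSTRG.30671.3, an assembled transcript next to it, had groups that overlapped, at -0.15 ± 0.25 (log2 fold change and SE; adjusted p = 0.777 by edgeR). Of 18 features that the gene column ties to 16 named neighbours of Ptges, such as Fnbp1 and Gpr107, 7 were tested and 0 passed by edgeR, DESeq2 or limma (0 at an unadjusted p under 0.05 by edgeR), with a median log2 fold change of -0.01 against 0.03 over all tested features.

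The placement of MSTRG.30697.1 was then read against assembled transcripts of the whole table. In 107 stretches of 10000000 bp, spliced assembled transcripts had a shift in common at which 4 or more of them took the exon structure of a protein-coding gene. Of 1517 assembled transcripts in these stretches, 781 (51.5%) have such a structure at the common shift and 0 at no shift. The shift of each stretch was the one with the most matches, and stretches with fewer than 4 were left out. That choice raises the share, and the table holds 2305 spliced assembled transcripts in all. How many would match at an arbitrary shift was not tested. Where the table fills the gene column of these 781, in 526, it names the gene of the exon structure in 48. The table labels 362 of the others than MSTRG.30697.1 antisense, 236 intronic and 182 intergenic. MSTRG.30697.1 is thus not the only transcript listed as an antisense lncRNA and matched in this way to a protein-coding gene. How common such entries truly are cannot be read from these numbers. Each shift was chosen for its matches, and the count at no shift does not measure matches by coincidence.

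Among these transcripts MSTRG.30697.1 stood low, but it was chosen on this contrast, so its place among them is a description. Of the 484 others that were tested, 20 were lower and 4 higher in LPS_ES_PMMA (4.96%, against 4.76% of all tested features), and their median log2 fold change was -0.53, against 0.03 over all tested features. In the stretch around the locus 13 were tested, 0 passed with edgeR (5 at an unadjusted p under 0.05), 1 with DESeq2 and 0 with limma, and the median was -0.79. The value of -2.99 for MSTRG.30697.1 is 2.45 below the median of transcripts of its kind and 3.01 below that of all features. The lean of assembled transcripts towards lower values in LPS_ES_PMMA moves with the locus, and its part in the members' values was not tested.

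**Figure D4:**
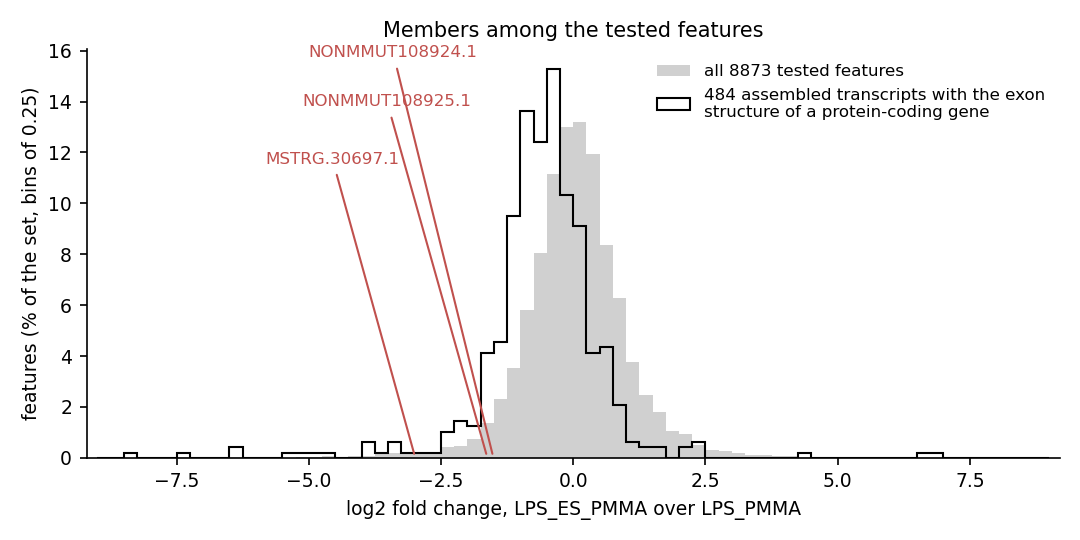
Histograms of the log2 fold change, LPS_ES_PMMA over LPS_PMMA, in percent of each set per bin of 0.25, for the 8873 tested features (grey) and for 484 assembled transcripts with the exon structure of a protein-coding gene (line), with the members marked. The line is shifted to the left, with a median of -0.53, and MSTRG.30697.1 at -2.99 lies in its left tail.

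Enzymes that make prostaglandins are represented by few features. Here and in the lists below, whether reads of catalogue features were counted at the gene they are tied to was not tested. Of 19 features tied by the gene column to genes of prostaglandin synthesis, 6 were tested, 1 passed, lower in LPS_ES_PMMA (2.58% of all tested features did), with a median log2 fold change of -0.14. The one that fell was NONMMUT056500.2, labelled antisense within an intron of Tbxas1, the thromboxane synthase, with 171, 95 and 146 counts in LPS_ES_PMMA 1, 2 and 3, and 706, 700 and 841 counts in LPS_PMMA 1, 2 and 3. The groups lay far apart, at -2.74 ± 0.24 (log2 fold change and SE; adjusted p = 0.00279 by edgeR). It passed under all 15 alternatives, with adjusted p between 3.12e-14 and 0.0486. Features at Ptgis, the prostacyclin synthase, and Ptgds, a prostaglandin D synthase, did not pass, with log2 fold changes of -0.18 to 0.12 in the 3 tested features of Ptgis and -0.58 in that of Ptgds.

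By exon structure, a tie added after the positions had been seen, MSTRG.6813.1 has the exons of Ptges3, the cytosolic prostaglandin E synthase. It held 28, 18 and 28 counts in LPS_ES_PMMA 1, 2 and 3, and 20, 21 and 19 counts in LPS_PMMA 1, 2 and 3, at 0.02 ± 0.32 (log2 fold change and SE; adjusted p = 0.983 by edgeR). The difference between this transcript and MSTRG.30697.1 was not tested. MSTRG.40963.1, with exons of Pla2g5, a phospholipase that releases arachidonic acid, stood at -1.29 ± 0.62 (log2 fold change and SE; adjusted p = 0.270 by edgeR). No feature was tied by exon structure to Ptgs1 or Ptgs2, the cyclooxygenases upstream of Ptges, and the only feature tied to either by the gene column, an antisense feature at Ptgs1, held at most 4 counts in a library.

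Downstream of the enzyme, 7 features were tied to prostaglandin receptors, transporters and breakdown enzymes, of which 3 were tested and 0 passed by edgeR, DESeq2 or limma (1 at an unadjusted p under 0.05 by edgeR), with a median log2 fold change of 0.87. All 3 lie antisense to Ptger4, a receptor for prostaglandin E2. The most abundant, ENSMUST00000120727, held 308, 128 and 197 counts in LPS_ES_PMMA 1, 2 and 3, and 60, 94 and 128 counts in LPS_PMMA 1, 2 and 3. Its CPM was higher in every LPS_ES_PMMA library than in any LPS_PMMA library, but its log2 fold change of 0.87 ± 0.26 (SE) gave an adjusted p of 0.109 by edgeR. Of the genes of the leukotriene branch, which uses arachidonic acid as well, 1 had a feature and 0 features were tested. Of 6 features tied to transcription factors described at the Ptges promoter, 1 was tested, at Sp3, and did not pass (log2 fold change 0.74 ± 0.50 SE, adjusted p = 0.438 by edgeR).

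Genes that LPS induces along with Ptges were read in the same way. Of 9 features tied by the gene column to a list of 30 such genes, 5 were tested and 1 passed, lower in LPS_ES_PMMA (2.58% of all tested features did), with a median log2 fold change of -0.68. By overlap with gene bodies, 9 were tested, 0 passed by edgeR and the median was 0.05. Within 10 kb of them, 18 were tested, 1 passed and the median was -0.13, so the median of this list depends on the tie. The one that fell was NONMMUT105607.1, a 747-nt feature listed beside Nfkb2, which encodes an NF-kB subunit. It held 12, 5 and 6 counts in LPS_ES_PMMA 1, 2 and 3, and 30, 41 and 41 counts in LPS_PMMA 1, 2 and 3 (log2 fold change -2.58 ± 0.32 SE, adjusted p = 0.00954 by edgeR). It did not pass with column totals, nor without LPS_ES_PMMA 1, LPS_ES_PMMA 3 or LPS_PMMA 2, with adjusted p over all alternatives between 0.000147 and 0.0788.

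By exon structure 3 assembled transcripts belong to that list, and 2 of them fell, against 20 of 484 tested assembled transcripts with such a structure. MSTRG.9414.1, with the exons of Ccl2, a chemokine that draws monocytes, held 2, 3 and 7 counts in LPS_ES_PMMA 1, 2 and 3, and 53, 63 and 42 counts in LPS_PMMA 1, 2 and 3. Its log2 fold change was -3.95 ± 0.52 (SE, adjusted p = 0.0118 by edgeR), and it did not pass without LPS_ES_PMMA 2 or LPS_PMMA 2 (adjusted p over all alternatives between 4.71e-07 and 0.0772). MSTRG.49961.1, with the exons of Saa3, an acute-phase protein of macrophages, held 0 counts in each LPS_ES_PMMA library, and 64, 18 and 18 counts in LPS_PMMA 1, 2 and 3. Set against 3 counts over the group, it was at least 41.1-fold lower in LPS_ES_PMMA (adjusted p = 0.0376 by edgeR), and at least 20.5-fold lower without LPS_PMMA 1. With any 1 library left out it passed in 0 of 6 fits, nor did it pass with robust edgeR or with a minimum mean FPKM of 1 (adjusted p over all alternatives between 3.33e-06 and 0.122). MSTRG.9473.1, with the exons of the chemokine gene Ccl4, held 152, 76 and 156 counts in LPS_ES_PMMA 1, 2 and 3, and 234, 241 and 162 counts in LPS_PMMA 1, 2 and 3, at -1.07 ± 0.32 (log2 fold change and SE; adjusted p = 0.109 by edgeR).

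The size of the members' difference depends on how libraries are scaled, and its direction did not under the scalings tried. With column totals in place of TMM the log2 fold change was -2.20 for MSTRG.30697.1, -0.75 for NONMMUT108924.1 and -0.84 for NONMMUT108925.1. The median of all tested features was then 0.82, against 0.03 with TMM. Relative to the median of all features the summed members stood at -1.91 with TMM, -1.90 with column totals and -1.87 with library totals implied by the FPKM values. A change of library totals moves all features nearly alike, so these near-equal distances are no test of the difference. With limma on log2(FPKM + 1) the distance was -1.72. It was -1.73 without LPS_ES_PMMA 2 and -2.14 without LPS_PMMA 3, the extremes with 1 library left out. The authors' deposited table, which works on mean FPKM, gives log2 fold changes of -2.54 for MSTRG.30697.1, -1.06 for NONMMUT108924.1 and -1.20 for NONMMUT108925.1. It lists all 3 as down, as it does 2.49% of its features. The authors' q-values from edgeR are 0.00039 for MSTRG.30697.1, 0.0833 for NONMMUT108924.1 and 0.118 for NONMMUT108925.1. For the NONCODE members the label therefore does not mean a q-value under the threshold used here. The members were chosen on this difference, so these q-values are a description.

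**Figure D5:**
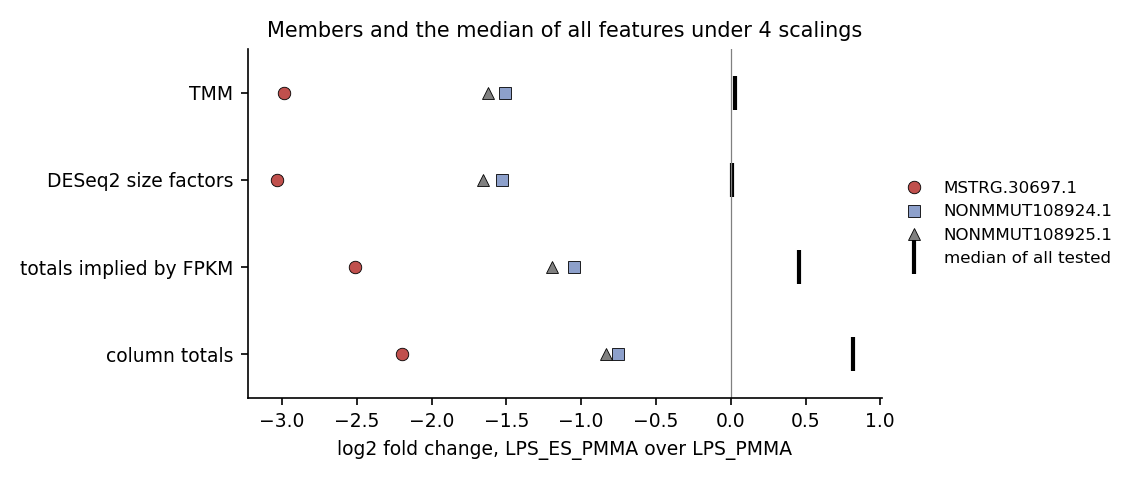
The log2 fold change, LPS_ES_PMMA over LPS_PMMA, of each member (symbols) and the median of all tested features (bars) are plotted under 4 ways of scaling the libraries. The members and the median move to the right together, so that MSTRG.30697.1 goes to -2.20 and the median to 0.82 with column totals.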

How the data were processed

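The deposited table gives, per the file headers, whole-number counts and FPKM for each feature in 6 libraries, and the authors' log2 fold change, p-value and q-value from edgeR (per the file name). The sources used here do not give the aligner, counter or strand setting; 0 columns were left unmapped. The members and the gene lists were chosen with earlier results of these data known, and the ties by exon structure were added after the listed positions were seen. Features were kept by filterByExpr (minimum count 10, minimum total 15), scaled by TMM and compared with the quasi-likelihood test of edgeR 4.0.16 in R 4.3.3, with Benjamini-Hochberg adjustment over 8873 features and a threshold of 0.05. Standard errors were derived from the log2 fold change and the F statistic. Alternatives used DESeq2 1.42.0 and limma 3.58.1 on log2(FPKM + 0.1). The fit was tested on simulated data. Gene models were GENCODE M21, which names 6750 of 6759 gene IDs of the gene column. Named features were the members, features of the interval, up to 5 features by mean FPKM and the called features of each list, and the 5 most like the summed members.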

Additional observations from a re-analysis of the deposited data

How the results depend on the processing

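All 3 members and their sum stayed lower in LPS_ES_PMMA under each of the 15 alternatives. Leaving out 1 library gave -2.04 to -1.71 for the sum, -3.41 to -2.71 for MSTRG.30697.1, -1.67 to -1.27 for NONMMUT108924.1 and -1.67 to -1.61 for NONMMUT108925.1 (log2). Values moved with the scale: with column totals the sum was -1.08, MSTRG.30697.1 -2.20, NONMMUT108924.1 -0.75 and NONMMUT108925.1 -0.84; with totals implied by FPKM the sum was -1.41, NONMMUT108924.1 -1.05 and NONMMUT108925.1 -1.19; with limma on log2(FPKM + 0.1) they were -1.41, -1.11 and -1.17, and with a pseudocount of 1 they were -1.37, -1.03 and -1.07, with MSTRG.30697.1 at -2.12. NONMMUT108928.1, at 0.02, lay between -0.29 (without LPS_PMMA 1) and 0.23 with 1 library left out and turned to -0.0056 without LPS_ES_PMMA 3; with column totals it was 0.75, with implied totals 0.40, with limma 0.57 (0.1) and 0.53 (1). None of these passed. NONMMUT106849.1 and NONMMUT108926.1 were -0.61 and -0.33 with column totals and -0.84 and -0.58 with implied totals; with limma they were -1.06 and -0.75 (0.1), and -0.56 and -0.68 (1). Neither passed under any alternative.

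Counts of called features depended on the setting: 302 higher and 68 lower with column totals, 248 and 96 with implied totals, 90 lower with limma (0.1), 415 and 133 with limma (1), 174 (64 and 110) with no filter, 192 (65 and 127) with a mean FPKM of at least 1, and 50 to 136 (10 to 44 higher, 36 to 92 lower) with 1 library left out, the fewest without LPS_PMMA 2. The list of LPS-induced genes had 0 with column totals, with overlap ties, and with LPS_ES_PMMA 1, LPS_ES_PMMA 3 or LPS_PMMA 2 left out, and 2 with exon-structure ties; over the 6 fits that left out 1 library it had 0 to 1. Prostaglandin synthesis had 0 with exon-structure ties, and neighbours of Ptges had 0 to 1, the 1 without LPS_PMMA 3. Of the 5 most like features, 3 stayed among the 5 with column totals, and 4 shared the highest Spearman rho with 161 features in all. The cause of these moves was not tested. Gene models of another build were not run.

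Replicate numbers are shared by the groups, but same-numbered libraries did not deviate together (r = -0.014, -0.036 and -0.074). With 3 libraries in each group this cannot show whether they share a culture or batch, which the labels do not give. With the replicate block the sum was -1.88, and 41 features passed (10 higher, 31 lower), 0 of them in the list of LPS-induced genes: NONMMUT105607.1 and, by exon structure, MSTRG.9414.1 and MSTRG.49961.1 did not pass (adjusted p 0.0741, 0.0772 and 0.0783 by edgeR). Of the other transcripts named by exon structure, MSTRG.29280.1, MSTRG.11690.1 and MSTRG.50491.1 (0.0532, 0.0784 and 0.0593) and MSTRG.42378.1, MSTRG.51917.1, MSTRG.31906.1 and MSTRG.15232.4 (0.124, 0.146, 0.119 and 0.113) did not pass with it either.

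With 5 to 15 counts of MSTRG.30697.1 in a library of LPS_ES_PMMA, counting error limits that level.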

Other observations

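Beside MSTRG.30697.1, 24 tested assembled transcripts with the exon structure of a protein-coding gene passed, 20 lower and 4 higher in LPS_ES_PMMA. They are described here by the genes of their exons, and the examples were chosen after their values were seen. Of the 20, 3 are given as examples. MSTRG.29280.1 (Ifit3, which binds foreign RNA in a complex with other members of its family) held 0, 2 and 0 counts in LPS_ES_PMMA 1, 2 and 3, and 60, 61 and 40 counts in LPS_PMMA 1, 2 and 3. MSTRG.11690.1 (Rsad2, the antiviral enzyme viperin) held 2, 3 and 12 counts in LPS_ES_PMMA 1, 2 and 3, and 63, 81 and 64 counts in LPS_PMMA 1, 2 and 3. MSTRG.50491.1 (Isg20, an exonuclease) held 8, 0 and 3 counts in LPS_ES_PMMA 1, 2 and 3, and 77, 119 and 62 counts in LPS_PMMA 1, 2 and 3. Their adjusted p-values by edgeR were 0.0106, 0.0173 and 0.0112. They passed in 3, 1 and 4 of the 6 fits that left out 1 library.

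The 4 that were higher have the exons of Cenpa, which encodes a centromere histone, Mki67, which encodes the antigen Ki-67, Selenoh, which encodes a selenoprotein, and Irx2, which encodes a homeobox transcription factor. MSTRG.42378.1 (Cenpa) held 17, 10 and 15 counts in LPS_ES_PMMA 1, 2 and 3 and 0 in each LPS_PMMA library. Set against 3 counts over the group, it was at least 11.3-fold higher (adjusted p = 0.0186 by edgeR), and at least 10.85-fold higher without LPS_ES_PMMA 3. MSTRG.51917.1 (Mki67) held 12, 4 and 19 counts in LPS_ES_PMMA 1, 2 and 3, and 1, 0 and 0 counts in LPS_PMMA 1, 2 and 3 (adjusted p = 0.0470 by edgeR). MSTRG.31906.1 (Selenoh) held 18, 6 and 24 counts in LPS_ES_PMMA 1, 2 and 3 and 0 in each LPS_PMMA library. On the same terms it was at least 12.97-fold higher (adjusted p = 0.0307 by edgeR), and at least 9.6-fold higher without LPS_ES_PMMA 3. MSTRG.15232.4 (Irx2) held 157, 94 and 149 counts in LPS_ES_PMMA 1, 2 and 3, and 32, 49 and 43 counts in LPS_PMMA 1, 2 and 3 (adjusted p = 0.0250 by edgeR). All 4 passed in 0 of the 6 fits that left out 1 library. With a mean FPKM of at least 1 in place of the filter, MSTRG.51917.1, MSTRG.15232.4 and MSTRG.31906.1 did not pass, and with no filter MSTRG.51917.1 and MSTRG.15232.4 did not.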
